A study of Kluyveromyces lactis with 8 samples.

Results

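Loss of the silencing protein Sir4 was followed in the milk yeast Kluyveromyces lactis by sequencing RNA from 2 libraries of a sir4∆ strain and 2 libraries of the wild-type strain (WT). These are 4 of the 8 libraries of the study. The others are 2 sir2∆ and 2 sum1∆ libraries, used here to show where sir4∆ differs from them and to estimate spread. Of 5076 genes in the deposited tables, 5004 averaged 1 FPKM or more across the sir4∆ and WT libraries and were compared. FPKM is a read count scaled by gene length and library size, so levels can be set side by side between genes.

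The sir4∆ strain carried MATa, sir4∆, hmr∆ and hml∆, the sir2∆ and sum1∆ strains carried the same with their own deletion, and WT carried MATa, SIR2, hmr∆ and hml∆. Both silent mating-type cassettes were thus missing in every strain, WT included. Each genotype is represented by a single strain. Per the labels, overnight cultures were restarted at OD 0.3 in the rich glucose medium YPD, reached OD 1 at 30 °C, and 10 OD units of these early log phase cells were collected. Total RNA, freed of DNA, went into non-stranded libraries that were sequenced as single 50-base reads. RNA came from whole cultures, so fewer cells expressing a gene and less RNA per cell cannot be told apart. The series design describes the 2 libraries of a strain as technical replicates, so every p-value below covers the spread between libraries and may not cover variation between cultures.

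Sir4 is a structural protein of silent chromatin. In the budding yeast Saccharomyces cerevisiae it is recruited to the silent mating-type loci and to telomeres together with Sir2, an NAD-dependent histone deacetylase, and the complex keeps the genes there from being transcribed. Sum1 is a DNA-binding repressor that keeps middle sporulation genes off in growing cells, with the help of an NAD-dependent deacetylase. Comparing sir4∆ with WT asks which transcripts depend on Sir4 in cells whose silent cassettes are gone. Gene roles given below are those known from S. cerevisiae.

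The deletion itself could not be checked by its own transcript, because no entry of the gene table carries the symbol SIR4. Among genes at 10 FPKM or more in both WT libraries, the lowest sir4∆ over WT ratio of mean FPKM was 0.219. No gene at that level was thus absent in sir4∆, and the identity of these libraries rests on their labels. In sum1∆ the deleted gene SUM1 was listed at 0 in both libraries, against 31.2 and 28.0 FPKM in WT. The HML genes HMLALPHA1 and HMLALPHA2 were listed at 0 in all 8 libraries, whose strains all lack HML. Read depth, which the spacing of low FPKM values allows to be estimated, was 10.6 and 11.5 M reads in sir4∆, against 21.7 and 11.8 M reads in WT. The root mean square log2 difference over all genes was 0.213 between the sir4∆ libraries, 0.182 between the WT libraries and 0.295 to 0.439 between a sir4∆ and a WT library. WT replicate 2, the shallower WT library, was nearer than WT replicate 1 to the sir4∆ mean at 69.4% of genes, and sir4∆ replicate 1 was farther than sir4∆ replicate 2 from the WT mean at 65.9% of genes. The part of depth and of single libraries in the changes below was not tested beyond leaving out libraries and adding a depth term.

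Calls and library pairs were used side by side. A gene was called when it changed 2-fold or more (1 on the log2 scale) with an adjusted p under 0.05 from limma, with Benjamini-Hochberg adjustment, in a fit of log2(FPKM + 1) over all 8 libraries. Separately, each gene was compared in the 4 pairs of 1 sir4∆ and 1 WT library. All fold changes are sir4∆ minus WT of log2(FPKM + 1), a scale that shrinks the changes of genes near 1 FPKM.

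Few transcripts changed past these thresholds when Sir4 was lost. There were 31 genes called higher (0.62% of those tested) and 37 called lower (0.739%). In all 68 of them (1.36%) the sir4∆ and WT values did not overlap, but this alone says little, since 33.6% of all genes were higher and 36.3% lower in all 4 pairs, and 30.1% overlapped. Differences past 2-fold in all 4 pairs were far fewer, 16 genes higher (0.32%) and 11 lower (0.22%), and each of these was also called. Past 1.5-fold in all 4 pairs stood 76 genes higher (1.52%) and 82 lower (1.64%). All 31 genes called higher and 32 of the 37 called lower had WT replicate 2 nearer to sir4∆ than WT replicate 1. Without WT replicate 1, which leaves only the shallower libraries in the comparison, 17 genes were called higher and 20 lower. Without WT replicate 2 the counts were 70 higher and 62 lower, and without sir4∆ replicate 2 they were 49 higher and 64 lower. Across all 4 single-library omissions, 17 of the genes called higher and 14 of those called lower kept their call. Calls against WT in the gene lists below stand against the 1.36% of all genes called, so 0 calls in a short list are near that share. Members higher or lower in all 4 pairs stand against 33.6% and 36.3% of all genes. Those passing the adjusted p without the fold threshold stand against 16.8% higher and 21.0% lower.

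**Figure D1:**
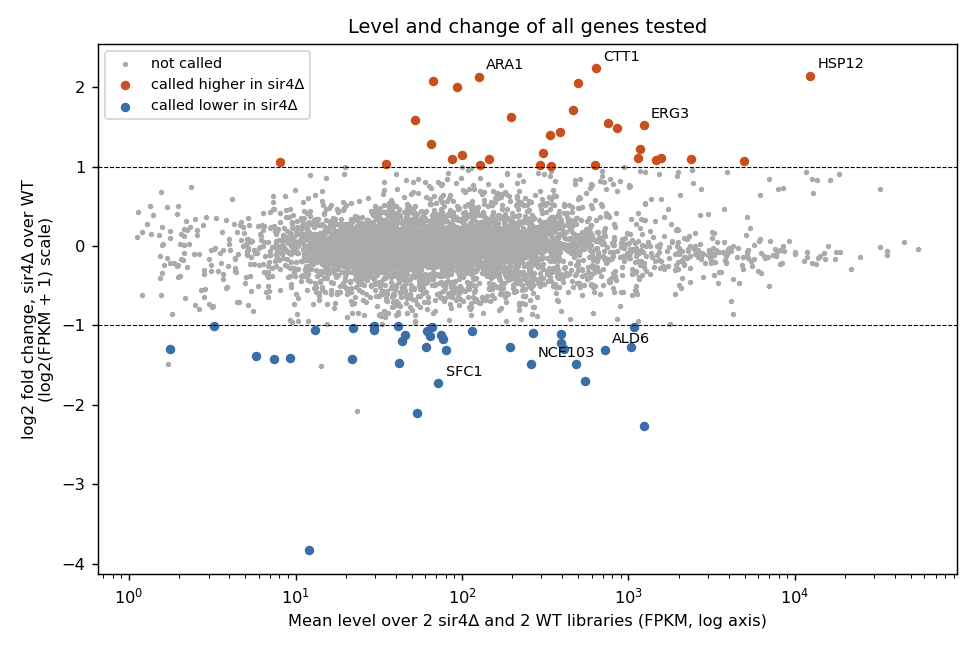
Log2 fold change (sir4∆ over WT) against the mean FPKM of the 2 sir4∆ and 2 WT libraries, on a log axis, for the 5004 genes tested; dashed lines mark 2-fold. The 31 genes called higher (orange) and 37 called lower (blue) occur at low and high levels, and most genes lie between the dashed lines. Rises were more frequent at 1000 FPKM or more (2.86% of genes) than from 10 to 100 FPKM (0.244%). The shares of falls there were 1.07% and 0.664%.

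The clearest rises were of stress-response genes. HSP12, which encodes a small membrane-stabilising stress protein, had 21638 and 18592 FPKM in sir4∆, against 4045 and 5069 FPKM in WT. Both sir4∆ libraries were far above both WT libraries, and the sir4∆ mean was 4.41 times the WT mean (log2 fold change 2.15, SE 0.14, adjusted p = 0.000404). CTT1, the cytosolic catalase that removes hydrogen peroxide, had 1158 and 951 FPKM in sir4∆, against 176 and 278 FPKM in WT. It showed the largest rise of all genes called (log2 fold change 2.24, SE 0.22, adjusted p = 0.000726), with the smallest of the 4 pairs at 1.77.

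FMP16, MSC1, GRE3, RTC3 and OM45 of the same list also rose without overlap between the strains. FMP16, a mitochondrial protein, had 948 and 660 FPKM in sir4∆, against 156 and 229 FPKM in WT. GRE3, an aldose reductase, had 1406 and 1089 FPKM in sir4∆, against 376 and 519 FPKM in WT. OM45, a protein of the mitochondrial outer membrane, had 149 and 126 FPKM in sir4∆, against 56.9 and 65.7 FPKM in WT. In total 7 of the 29 tested members of the stress list were called higher and 0 lower, against 0.62% and 0.739% of all genes. All 7 kept the call when any 1 library was left out. The list as a whole did not move one way. In all 4 pairs 15 members were higher (51.7%) and 7 lower (24.1%), against 33.6% and 36.3% of all genes. The median log2 fold change was 0.13, against -0.01 over all genes. The same median between the WT libraries, replicate 2 minus replicate 1, was 0.14.

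Several classic stress genes were among those that stayed. HSP26, a small heat-shock chaperone, had 48.9 and 48.8 FPKM in sir4∆, against 45.3 and 51.2 FPKM in WT. The thioredoxin gene TRX2 had 4160 and 4369 FPKM in sir4∆, against 4189 and 4299 FPKM in WT. Both overlapped between strains and had 95% intervals within 1.5-fold. HSP42, HSP78 and CYC7, the last an isoform of cytochrome c, were lower in all 4 pairs without reaching 2-fold (log2 fold changes -0.37, -0.41 and -0.69). The list of chaperones and proteasome genes had 0 of 50 members called, against 1.36% of all genes, and all 50 within 2-fold by their 95% interval, against 95.4% of all genes. Of the 50, 32 were higher (64.0%) and 8 lower (16.0%) in all 4 pairs, against 33.6% and 36.3% of all genes. The median was 0.09.

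The aldo-keto reductase gene ARA1, whose enzyme reduces sugars and aldehydes with NADPH, was among the 3 largest rises. It had 228 and 183 FPKM in sir4∆, against 38.9 and 53.8 FPKM in WT (log2 fold change 2.13, SE 0.17, adjusted p = 0.00058). The lower sir4∆ library was still more than 3 times the higher WT library. Other genes with a symbol that were called higher were ACB1, an acyl-CoA binding protein, SNA2, ATX2, a manganese transporter of the Golgi, UIP4, PYP1, DPA10 and MET28, a regulator of sulphur metabolism. All were close to the fold threshold, and none of them kept the call without WT replicate 1.

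Sterol synthesis genes stood higher together. ERG3, the sterol desaturase of the late ergosterol pathway, had 2002 and 1653 FPKM in sir4∆, against 543 and 739 FPKM in WT. It was past 2-fold in every pair (log2 fold change 1.52, SE 0.14, adjusted p = 0.000661) and kept its call without any 1 library. ERG11, the lanosterol demethylase targeted by azole antifungals, had 2179 and 2122 FPKM in sir4∆, against 873 and 1134 FPKM in WT. ERG1, the squalene epoxidase, had 1570 and 1520 FPKM in sir4∆, against 634 and 810 FPKM in WT. ERG24, a sterol reductase, had 223 and 172 FPKM in sir4∆, against 84.1 and 99.7 FPKM in WT. The values of these 3 genes did not overlap between strains, but their calls were lost without WT replicate 1, which left ERG3 the sole call of the list.

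Of 38 tested members of the sterol and sphingolipid list, 4 were called higher and 0 lower. In all 4 pairs 33 were higher (86.8%) and 3 lower (7.89%), against 33.6% and 36.3% of all genes. Dropping the fold threshold, 29 passed the adjusted p in the higher direction and 1 in the lower, against 16.8% and 21.0% of all genes. The median log2 fold change was 0.47, and between the WT libraries it was 0.11. Enzymes at the start of the pathway, such as ERG10 (log2 fold change 0.79) and ERG13 (0.64), and at the middle, such as ERG20 (0.60), passed the adjusted p below 2-fold. The regulator UPC2, a sterol-responsive transcription factor, had 147 and 141 FPKM in sir4∆, against 112 and 122 FPKM in WT (log2 fold change 0.30, adjusted p = 0.0242). The sphingolipid enzymes LCB1 and LCB2, subunits of serine palmitoyltransferase, had log2 fold changes of -0.12 and 0.08 and did not pass.

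**Figure D2:**
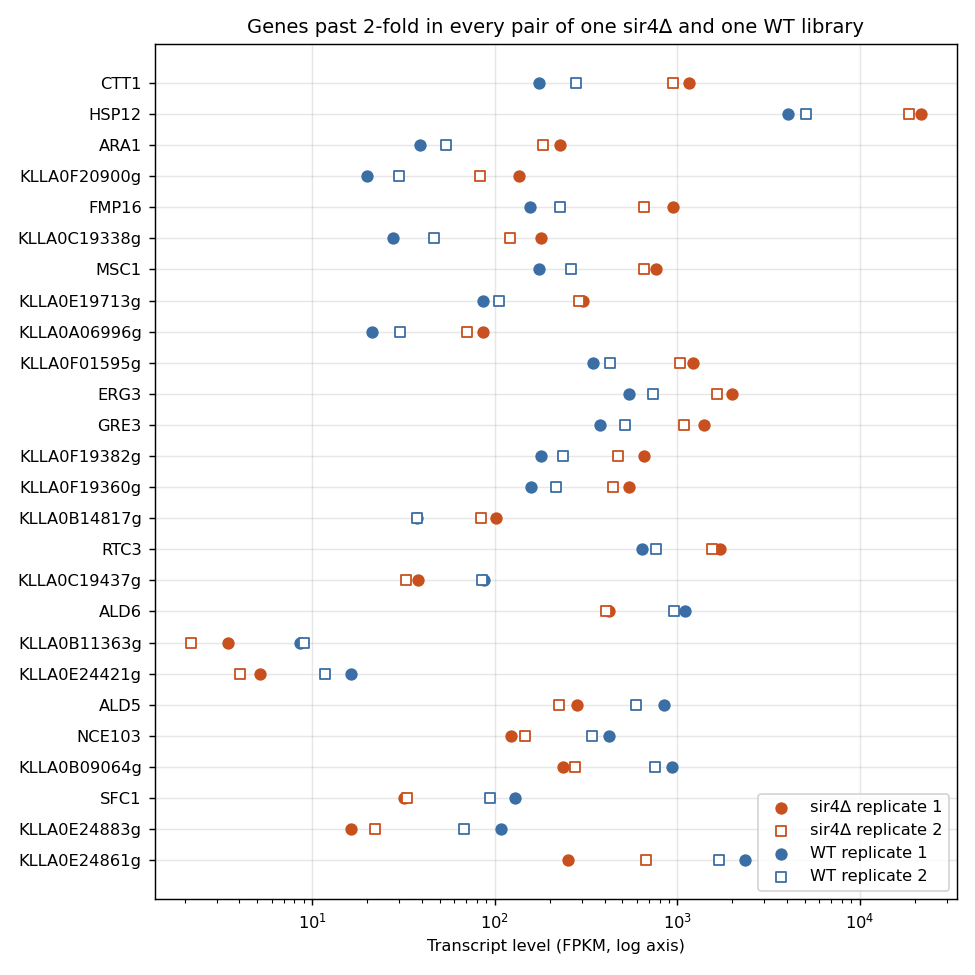
FPKM on a log axis in each library for 26 of the 27 genes past 2-fold in every pair of 1 sir4∆ and 1 WT library, sorted by fold change; KLLA0E16149g, listed at 0 in both sir4∆ libraries, is left out. Orange symbols are sir4∆, blue symbols WT, filled circles replicate 1 and open squares replicate 2; in the upper 16 rows WT replicate 2 lies at or nearer to sir4∆ than WT replicate 1.

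Several glycolytic enzymes, which split glucose to pyruvate, stood higher below the fold threshold. FBA1, the aldolase, had 21639 and 19876 FPKM in sir4∆, against 10499 and 12853 FPKM in WT (log2 fold change 0.84, SE 0.10, adjusted p = 0.00109). PGK1, phosphoglycerate kinase, had 18745 and 16192 FPKM in sir4∆, against 9045 and 10655 FPKM in WT, and GPM1, phosphoglycerate mutase, behaved alike with a log2 fold change of 0.85. TPI1 (0.73), PGI1 (0.79) and the phosphofructokinase subunits PFK1 (0.53) and PFK2 (0.59) were also higher in all 4 pairs. Of 16 tested members 0 were called higher and 1 was called lower (ARO10, described below). In all 4 pairs 10 were higher (62.5%) and the other 6 lower (37.5%), against 33.6% and 36.3% of all genes. Besides ARO10, the lower members were ADH3, described below, the regulators GCR1 (-0.17), GCR2 (-0.12) and PDC2 (-0.11), and FBP26 (-0.10). The median log2 fold change was 0.54 and ranged over the 4 pairs from 0.34 to 0.66, while WT replicate 2 stood 0.24 above WT replicate 1.

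Of the 8 members of the trehalose and glycogen list, 5 were higher (62.5%) and 3 lower (37.5%) in all 4 pairs. Of all genes 33.6% were higher and 36.3% lower. TPS1, which makes trehalose 6-phosphate, had 1042 and 939 FPKM in sir4∆, against 483 and 627 FPKM in WT (log2 fold change 0.85, SE 0.13, adjusted p = 0.00214). TPS2 (0.63) and TPS3 (0.53) were also higher in all 4 pairs, as were the glycogen enzymes GLC3 (0.49) and GPH1 (0.35). ATH1, the trehalase of the cell surface, had 10.5 and 8.77 FPKM in sir4∆, against 12.2 and 13.1 FPKM in WT (log2 fold change -0.36, adjusted p = 0.0146). The other lower members were GCR1 and YPI1 (-0.16), neither of which passed the adjusted p. None of the 8 was called, the median was 0.42, and between the WT libraries it was 0.19.

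Among the falls, carbon metabolism outside glycolysis was represented by several enzymes and a carrier. SFC1, the mitochondrial succinate-fumarate carrier, had 31.9 and 33.2 FPKM in sir4∆, against 129 and 94.0 FPKM in WT (log2 fold change -1.73, SE 0.13, adjusted p = 0.000566). The sir4∆ libraries nearly coincided, and the lower WT library was well above both. NCE103, the carbonic anhydrase that supplies bicarbonate, had 123 and 147 FPKM in sir4∆, against 423 and 340 FPKM in WT (log2 fold change -1.49, SE 0.13, adjusted p = 0.00058). ALD5, a mitochondrial aldehyde dehydrogenase, had 284 and 224 FPKM in sir4∆, against 842 and 595 FPKM in WT (log2 fold change -1.48, SE 0.20, adjusted p = 0.00148). ALD6, the cytosolic enzyme of the same reaction and a source of NADPH and acetate, had 421 and 407 FPKM in sir4∆, against 1103 and 958 FPKM in WT (log2 fold change -1.31, SE 0.09, adjusted p = 0.000404). All 4 genes kept the call when any 1 library was left out.

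NDI1, the internal NADH dehydrogenase of mitochondria, also fell, with 668 and 752 FPKM in sir4∆ against 1571 and 1322 FPKM in WT. ARO10, a decarboxylase of the pathway from aromatic amino acids to fusel alcohols, had 227 and 270 FPKM in sir4∆, against 585 and 491 FPKM in WT. Neither gene overlapped between strains, and both lost the call without WT replicate 1 and without sir4∆ replicate 1. ADH3, a mitochondrial alcohol dehydrogenase, lay just under the fold threshold, with 1186 and 1185 FPKM in sir4∆ against 2565 and 2130 FPKM in WT (log2 fold change -0.98, adjusted p = 0.000702). In the list of aldehyde and acetate metabolism, 2 of 17 members were called higher (ARA1 and GRE3) and 3 lower (ALD5, ALD6 and NDI1), and the median was -0.28. ACS2, which makes cytosolic acetyl-CoA, had 381 and 315 FPKM in sir4∆, against 367 and 338 FPKM in WT, so its values overlapped.

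Genes of the tricarboxylic acid cycle were lower by small amounts. ACO1, aconitase, had 850 and 797 FPKM in sir4∆, against 1362 and 1173 FPKM in WT (log2 fold change -0.62, SE 0.07, adjusted p = 0.000957). MPC3, a subunit of the mitochondrial pyruvate carrier, had the lowest value in the list, -0.84. None of 31 tested members was called. In all 4 pairs 25 were lower (80.6%) and 4 higher (12.9%), against 36.3% and 33.6% of all genes. Without the fold threshold 23 passed the adjusted p in the lower direction, against 21.0% of all genes. The median was -0.36, and between the WT libraries it was -0.08. Genes of the respiratory chain and ATP synthase had a median of -0.25, and NDI1 was the sole member called. In all 4 pairs 35 of 43 members were lower (81.4%), against 36.3% of all genes. The cytochrome bc1 subunit QCR8 had 5826 and 5726 FPKM in sir4∆, against 8300 and 8014 FPKM in WT (log2 fold change -0.50, adjusted p = 0.00058).

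A few genes of metal, phosphate and sterol uptake also fell. CTR1, the high-affinity copper importer, had 90.0 and 140 FPKM in sir4∆, against 307 and 240 FPKM in WT (log2 fold change -1.27, SE 0.19, adjusted p = 0.00206). FRE1, the surface reductase that prepares iron and copper for uptake, had 159 and 177 FPKM in sir4∆, against 412 and 315 FPKM in WT. CTR1 lost its call without sir4∆ replicate 1 and FRE1 without WT replicate 1, and the remaining 22 tested genes of the iron and copper list were not called. SPL2, a small protein that regulates phosphate transport, had 29.0 and 23.2 FPKM in sir4∆, against 56.5 and 64.6 FPKM in WT (log2 fold change -1.19, SE 0.16, adjusted p = 0.00133). It kept its call under every single-library omission. SUT1, a transcription factor of sterol uptake, had 40 and 48.5 FPKM in sir4∆, against 147 and 83.9 FPKM in WT, and its call rested on WT replicate 1.

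Ribosome biogenesis genes stood lower almost throughout their list. RRP5, an early processing factor of pre-ribosomal RNA, had 18.2 and 19.7 FPKM in sir4∆, against 45.5 and 35.7 FPKM in WT (log2 fold change -1.05, SE 0.11, adjusted p = 0.000752). DIM1, the 18S ribosomal RNA dimethylase, had 42.4 and 50.9 FPKM in sir4∆, against 113 and 92.6 FPKM in WT. RRP1 and the helicase gene DBP10 were called lower as well. All 4 lost the call without WT replicate 1. Of 141 tested members, 4 were called lower and 0 higher. In all 4 pairs 130 were lower (92.2%), against 36.3% of all genes. Without the fold threshold 124 passed the adjusted p in the lower direction, against 21.0% of all genes. The median was -0.57, with the 4 pairs between -0.76 and -0.38, and WT replicate 2 stood at -0.24 relative to WT replicate 1.

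Mitochondrial ribosomal proteins were lower too, and more narrowly, with a median of -0.38 and 0 called. In all 4 pairs 67 of 69 members were lower (97.1%), against 36.3% of all genes. MRPL13 marked the low end, with 140 and 158 FPKM in sir4∆ against 232 and 221 FPKM in WT (log2 fold change -0.60, SE 0.07, adjusted p = 0.00079). All 69 had 95% intervals within 2-fold. Cytosolic ribosomal proteins, which make up many of the most abundant transcripts, had a median of -0.08, 0 of 57 called and all 57 within 2-fold. However, 47 were lower in all 4 pairs (82.5%), against 36.3% of all genes. Without the fold threshold 17 passed the adjusted p in the lower direction, against 21.0% of all genes. The list was matched by name and so includes RPP1, of RNase P. RPS26A had 15611 and 15811 FPKM in sir4∆, against 15775 and 15671 FPKM in WT.

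**Figure D3:**
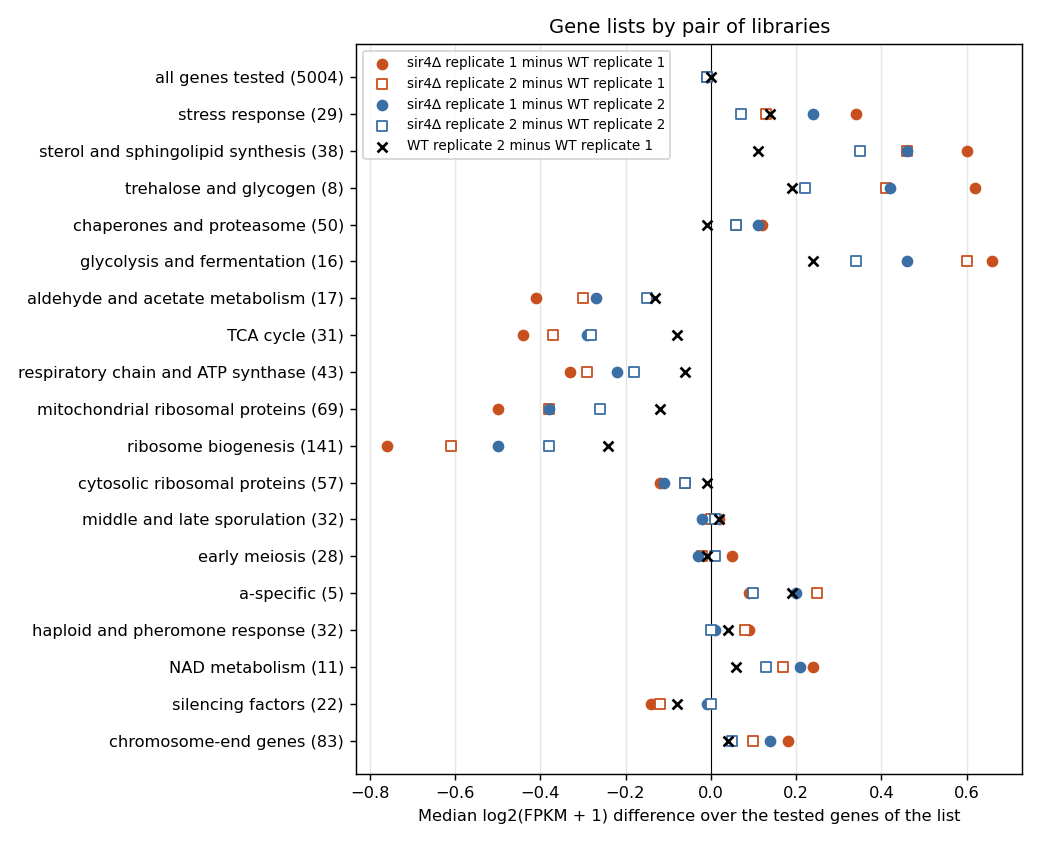
Median log2(FPKM + 1) difference over the tested genes of each list (number in brackets), for each of the 4 pairs of 1 sir4∆ and 1 WT library (circles and squares) and for WT replicate 2 minus WT replicate 1 (crosses). Ribosome biogenesis, from -0.76 to -0.38, and glycolysis, from 0.34 to 0.66, lie away from 0 in every pair, the cross lies on the same side of 0 as the pairs in both, and sporulation and meiosis lie near 0.

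Middle and late sporulation genes, which Sum1 holds off in growing S. cerevisiae cells, gave no called rise in sir4∆. Of 34 in the files, 32 passed the filter, 0 were called higher and 2 lower, and the median was 0.00. Of all genes 0.62% were called higher and 0.739% lower. In all 4 pairs 9 members were higher (28.1%) and 9 lower (28.1%), against 33.6% and 36.3% of all genes. Dropping the fold threshold, 3 passed the adjusted p in the higher direction and 5 in the lower. OSW2 was among the higher (log2 fold change 0.35, adjusted p = 0.0192). The 95% interval lay within 2-fold for 29 of them (90.6%), against 95.4% of all genes. GIP1, a phosphatase subunit needed for spore walls, had 2.23 and 2.44 FPKM in sir4∆, 65.3 FPKM on average in sir2∆, 175 FPKM on average in sum1∆, and 3.35 and 3.21 FPKM in WT (log2 fold change against WT -0.36, adjusted p = 0.00699). MUM3, needed for spore wall assembly, had 2.50 and 1.41 FPKM in sir4∆, 53.1 FPKM on average in sir2∆, 110 FPKM on average in sum1∆, and 1.94 and 1.19 FPKM in WT. SSP2, below the filter, had 0.56 and 0.699 FPKM in sir4∆, 37.8 and 37.5 FPKM in sir2∆, 41.1 and 40.7 FPKM in sum1∆, and 0.70 and 0.277 FPKM in WT. In the direct contrast sir4∆ was called lower than sir2∆ at 21 of these 32 genes and lower than sum1∆ at 23, and higher at 0 in both. Of all genes 8.41% were called lower than in sir2∆ and 12.4% lower than in sum1∆. The master regulator of middle sporulation, NDT80, had 17.1 and 15.2 FPKM in sir4∆, against 17.2 and 17.9 FPKM in WT.

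The 2 sporulation genes that were called fell in sir4∆. PFS1, needed for the prospore membrane, had 1.59 and 2.04 FPKM in sir4∆, against 4.8 and 4.5 FPKM in WT (log2 fold change -1.01, SE 0.09, adjusted p = 0.00058), and it averaged 138 FPKM in sir2∆. DTR1, a dityrosine transporter of the spore wall, had 35.8 and 52.1 FPKM in sir4∆, against 97.0 and 80.6 FPKM in WT (log2 fold change -1.02, SE 0.16, adjusted p = 0.00262). Both lost the call without WT replicate 1 and without sir4∆ replicate 1. SPO1 and DIT2 were also lower in all 4 pairs, with log2 fold changes of -0.61 and -0.64.

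Early meiotic genes gave 0 calls among 28 tested and 27 within 2-fold (96.4%), shares near those of all genes (1.36% called and 95.4% within 2-fold). The median was -0.01. In all 4 pairs 6 were higher (21.4%) and 7 lower (25.0%), against 33.6% and 36.3% of all genes. PHO92, an RNA-binding protein of meiosis, had 3.43 and 4.35 FPKM in sir4∆, averages of 82.0 FPKM in sir2∆ and 90.5 FPKM in sum1∆, and 3.07 and 3.57 FPKM in WT. Sir4∆ was called lower than sir2∆ at 10 of the 28 and lower than sum1∆ at 9, against 8.41% and 12.4% of all genes.

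Genes specific to a cells stayed near WT as well. AGA2, the binding subunit of a-agglutinin, had 6.98 and 6.23 FPKM in sir4∆, averages of 240 FPKM in sir2∆ and 281 FPKM in sum1∆, and 4.98 and 5.75 FPKM in WT. BAR1, the protease that degrades alpha-factor, lay below the filter with 0.481 and 0.286 FPKM in sir4∆, 16.9 and 17.6 FPKM in sir2∆, 21.7 and 23.2 FPKM in sum1∆, and 0.322 and 0.529 FPKM in WT. The a-cell receptor gene STE2 had 10.0 and 9.82 FPKM in sir4∆ and 9.35 and 8.35 FPKM in WT. Of the a-specific list 5 of 6 members were tested and 0 were called. The alpha-cell receptor gene STE3, at 18.2 and 16.1 FPKM in sir4∆ and 12.1 and 14.9 FPKM in WT, was present at or above the level of STE2 in these MATa cells. AFB1, an a-factor barrier gene, had 21.5 and 18.7 FPKM in sir4∆, against 10.5 and 10.6 FPKM in WT (log2 fold change 0.86, SE 0.12, adjusted p = 0.00141), so it passed the adjusted p without the fold threshold. Of the alpha-specific list 3 of 5 members were tested and 0 were called. Of these, 2 were higher in all 4 pairs (66.7%), against 33.6% of all genes, and the median was 0.33.

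In the list of haploid and pheromone-response genes 0 of 32 members were called, near the 1.36% of all genes, and the median was 0.02. In all 4 pairs 11 were higher (34.4%) and 7 lower (21.9%), against 33.6% and 36.3% of all genes. SST2, which turns the pheromone signal off, had 55.2 and 53.9 FPKM in sir4∆, against 30.9 and 39.9 FPKM in WT (log2 fold change 0.62, adjusted p = 0.00324). STE18, the gamma subunit of the pheromone G protein, was listed at 0 in sir4∆ replicate 1 and at 2.49 FPKM in sir4∆ replicate 2, averaged 75.4 FPKM in sir2∆ and 57.9 FPKM in sum1∆, and had 2.49 and 2.30 FPKM in WT. Its coding length is 273 bases, and sir4∆ replicate 2 lay at the level of WT.

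Nicotinic acid and NAD genes were not called in sir4∆. TNA1, the nicotinic acid transporter, had 234 and 234 FPKM in sir4∆, averages of 951 FPKM in sir2∆ and 1096 FPKM in sum1∆, and 225 and 234 FPKM in WT. NPT1, which feeds nicotinic acid into NAD, had 114 and 118 FPKM in sir4∆, averages of 1085 FPKM in sir2∆ and 1028 FPKM in sum1∆, and 134 and 140 FPKM in WT (log2 fold change against WT -0.24, adjusted p = 0.0112). The direct contrast for NPT1 was -3.22 against sir2∆ (adjusted p = 7.68e-09) and -3.14 against sum1∆ (adjusted p = 6.37e-09). All 11 members were within 2-fold of WT, but 8 were higher in all 4 pairs (72.7%), against 33.6% of all genes. Without the fold threshold 6 passed the adjusted p in the higher direction and 2 in the lower, against 16.8% and 21.0% of all genes. The median was 0.19. BNA3, at 0.67, was the highest. PNC1, the nicotinamidase that clears an inhibitor of Sir2, had 144 and 119 FPKM in sir4∆, against 90.2 and 96.8 FPKM in WT (log2 fold change 0.48, adjusted p = 0.00448).

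**Figure D4:**
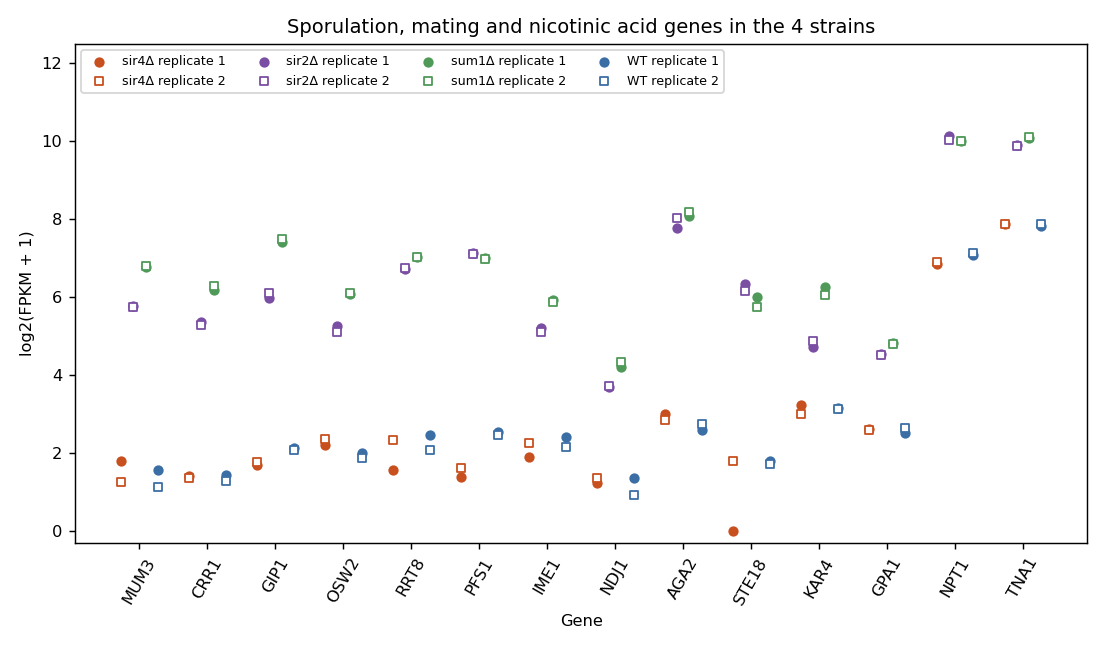
Log2(FPKM + 1) of sporulation, meiotic, mating and nicotinic acid genes in each library of sir4∆, sir2∆, sum1∆ and WT, circles for replicate 1 and squares for replicate 2. For each gene drawn the sir2∆ and sum1∆ points lie above all sir4∆ and WT points. Most of these genes were picked for the largest rise in sir2∆ within their list, so sir2∆ above WT was set by that choice. STE2, not drawn, averaged 9.74 FPKM in sir2∆ and 8.85 FPKM in WT. STE18 is at 0 in sir4∆ replicate 1.

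None of the 22 tested silencing factors was called, and all 22 had 95% intervals within 2-fold, shares near those of all genes (1.36% called and 95.4% within 2-fold). In all 4 pairs 6 were higher (27.3%) and 9 lower (40.9%), against 33.6% and 36.3% of all genes. SUM1 had 22.1 and 24.6 FPKM in sir4∆, against 31.2 and 28.0 FPKM in WT (log2 fold change -0.33, SE 0.09, adjusted p = 0.0202). RFM1, its partner, had 46.1 and 48.0 FPKM in sir4∆ and overlapped WT at 53.9 and 46.6 FPKM. ORC1, the origin recognition subunit related to Sir3, had 22.2 and 25.6 FPKM in sir4∆, against 24.3 and 21.7 FPKM in WT. The histone chaperone gene ASF1 had the highest fold change of the list, below 2-fold, at 186 and 191 FPKM in sir4∆ against 117 and 139 FPKM in WT (log2 fold change 0.56, adjusted p = 0.00187). Histone genes gave 0 calls among 10, all within 2-fold, with 7 lower and 1 higher in all 4 pairs.

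Genes near chromosome ends, where Sir proteins act in S. cerevisiae, moved in both directions. The outermost 10 genes of each of 12 ends gave 120 genes, of which 83 passed the filter on low values. Of these 83, 3 were called higher and 5 lower, against 0.62% and 0.739% of all genes, and the median was 0.08. In all 4 pairs 37 were higher (44.6%) and 20 lower (24.1%), against 33.6% and 36.3% of all genes. Without the fold threshold, 26 of the 83 passed the adjusted p in the higher direction and 11 in the lower. Over all genes these shares were 16.8% and 21.0%. The calls lay at 3 ends. At the last end of chromosome C, KLLA0C19338g had 180 and 121 FPKM in sir4∆, against 27.9 and 46.4 FPKM in WT (log2 fold change 2.01, SE 0.23, adjusted p = 0.00093). Its neighbour KLLA0C19327g had 48.9 and 45.7 FPKM in sir4∆, against 19.4 and 26.1 FPKM in WT. At the same end KLLA0C19437g fell, with 38.0 and 32.6 FPKM in sir4∆ against 86.9 and 85.1 FPKM in WT. At the last end of chromosome B, KLLA0B14817g had 102 and 83.9 FPKM in sir4∆, against 37.5 and 37.6 FPKM in WT. None of these genes carries a symbol in the gene table.

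The last end of chromosome E held a run of 4 neighbouring genes that fell. KLLA0E24861g, at position 10 from the end, had 252 and 673 FPKM in sir4∆, against 2350 and 1684 FPKM in WT (log2 fold change -2.27, SE 0.38, adjusted p = 0.00308). KLLA0E24883g had 16.4 and 22.2 FPKM in sir4∆, against 108 and 67.7 FPKM in WT (log2 fold change -2.11, SE 0.21, adjusted p = 0.000702). KLLA0E24905g had 186 and 297 FPKM in sir4∆, against 645 and 522 FPKM in WT, and KLLA0E24927g had 457 and 769 FPKM in sir4∆, against 1636 and 1257 FPKM in WT. In each of the 4 genes sir4∆ replicate 1 was the lowest library and WT replicate 1 the highest, and the last 2 lost their call without sir4∆ replicate 1. The genes on either side did not fall. KLLA0E24817g had 238 and 265 FPKM in sir4∆, against 177 and 187 FPKM in WT, and KLLA0E24949g had 55.2 and 49.1 FPKM in sir4∆, against 23.0 and 32.4 FPKM in WT. Against sir2∆, sir4∆ was lower by 1.62 at KLLA0E24861g and by 2.64 at KLLA0E24883g on the log2 scale, and the contrasts at the other 2 genes did not pass (-0.46 and -0.35). Of the 10 tested genes at this end, 2 were called lower in sum1∆ against WT and 0 in sir2∆ against WT. Falls at this end were thus not limited to sir4∆.

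**Figure D5:**
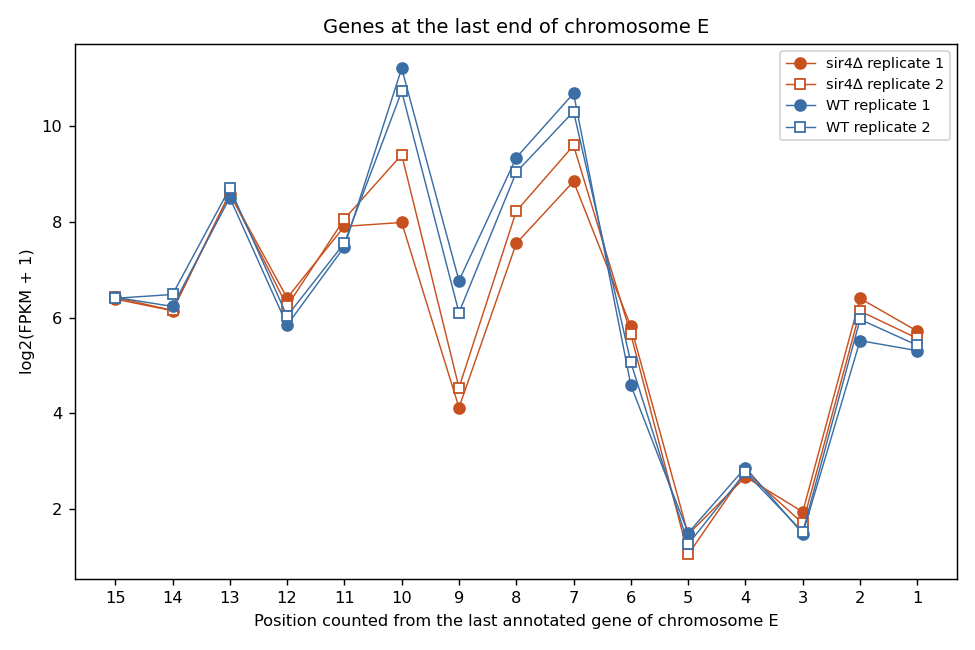
Log2(FPKM + 1) of the last 15 annotated genes of chromosome E in the 2 sir4∆ libraries (orange) and the 2 WT libraries (blue), ordered toward the chromosome end; lines join genes of 1 library. Positions 10 to 7 are lower in both sir4∆ libraries, and positions 11 and 6 are higher in both.

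Away from the ends, 2 overlapping genes of chromosome B fell together. KLLA0B10395g had 39.1 and 39.7 FPKM in sir4∆, averages of 501 FPKM in sir2∆ and 452 FPKM in sum1∆, and 90.2 and 78.2 FPKM in WT. KLLA0B10406g had nearly the same values, and because the strand was not kept the reads of the overlap cannot be assigned to 1 of them. Both lost the call without WT replicate 1. On chromosome F, KLLA0F19360g and KLLA0F19382g both rose past 2-fold in every pair, the first with 542 and 443 FPKM in sir4∆ against 159 and 216 FPKM in WT. Of the genes without a symbol that fell most, KLLA0B09064g had 238 and 277 FPKM in sir4∆, against 935 and 751 FPKM in WT (log2 fold change -1.70, SE 0.14, adjusted p = 0.00058). KLLA0E16149g, with a coding length of 165 bases, had no FPKM in sir4∆ (listed at 0) and 3.44 and 44.5 FPKM in WT, so no fold is given; it was not called once sir4∆ replicate 1 was left out.

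Most of the transcriptome stayed within 2-fold when Sir4 was lost. Smaller shifts were common: without the fold threshold, 841 genes (16.8%) passed the adjusted p in the higher direction and 1050 (21.0%) in the lower. The 95% interval lay within 2-fold for 4776 genes (95.4%) and within 1.5-fold for 4064 (81.2%). All 4 pairs lay within 2-fold for 4792 genes (95.8%) and within 1.5-fold for 4210 (84.1%). The interval half-width had a median of 0.17 on the log2 scale, and 0.27 for genes between 1 and 10 FPKM, of which 88.1% were held within 2-fold. Genes at 1000 FPKM or more had a median half-width of 0.12, and 88.6% of them were held within 2-fold, against 96.8% of genes from 10 to 100 FPKM and 95.5% from 100 to 1000 FPKM. Among genes with a symbol that averaged 100 FPKM or more, the steadiest over the 4 pairs were MLC1, a myosin light chain, ENT5, GCD6, a translation factor subunit, RPS26A, KTR3 and SLG1, a cell wall sensor. MLC1 had 411 and 413 FPKM in sir4∆, against 406 and 410 FPKM in WT. Of genes with a symbol, the most abundant were RPS28A, RPL29 and CCW12, a cell wall protein, with log2 fold changes of -0.11, -0.06 and -0.13. KLLA0A11858g, without a symbol and more abundant than CCW12, had 42538 and 37964 FPKM in sir4∆, against 22918 and 25881 FPKM in WT (log2 fold change 0.72, adjusted p = 0.000749), so it passed the adjusted p below 2-fold. It is near the last end of chromosome A. Cell wall genes gave 0 calls among 25 and amino acid synthesis genes 0 among 74, against 1.36% of all genes. All members of both lists were within 2-fold. In all 4 pairs 14 cell wall genes were lower (56.0%) and 4 higher (16.0%), and 41 amino acid synthesis genes were higher (55.4%) and 17 lower (23.0%). Of all genes 33.6% were higher and 36.3% lower.

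The direct contrasts with the other deletions, whose fold changes use no WT library, showed where sir4∆ differed from them. The spread of these contrasts was estimated from all 8 libraries, WT included. A difference can lie in either strain. The root mean square log2 difference from a WT library was 0.295 to 0.439 in sir4∆, 0.616 to 0.666 in sir2∆ and 0.75 to 0.79 in sum1∆. The filter used the sir4∆ and WT libraries, so genes such as SSP2 and BAR1, low in both, are not counted here. Against sir2∆, 162 genes were called higher in sir4∆ (3.24%) and 421 lower (8.41%). Quantile normalization moved this split to 231 higher and 339 lower. Without it, 202 of the 228 genes called higher in sir2∆ against WT were called lower in sir4∆ than in sir2∆. Against sum1∆, 246 were called higher in sir4∆ (4.92%) and 618 lower (12.4%), and after quantile normalization 341 and 534. The genes of the sterol list were called higher in sir4∆ than in sir2∆ at 14 of 38 members and lower at 0, against 3.24% and 8.41% of all genes. Against WT the list median was 0.47 in sir4∆ and -0.32 in sir2∆, where 4 members were called lower. ERG1 averaged 1545 FPKM in sir4∆, 221 FPKM in sir2∆ and 279 FPKM in sum1∆, against 722 FPKM in WT, and its direct contrast to sir2∆ was 2.81 (adjusted p = 8.21e-07).

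HSP12 averaged 20115 FPKM in sir4∆, 6170 FPKM in sir2∆ and 893 FPKM in sum1∆, against 4557 FPKM in WT. Ribosome biogenesis genes were called lower in sir4∆ than in sir2∆ at 37 of 141 members and lower than in sum1∆ at 113. Of all genes 8.41% and 12.4% were called lower. The other deletions contributed to these differences: the median log2 fold change of the list against WT was -0.57 in sir4∆, 0.24 in sir2∆ and 0.77 in sum1∆. Because all 3 deletions are compared with the same WT libraries, a WT library that deviates moves each comparison with WT alike. The fold changes of the direct contrasts avoid this, but not differences of depth. Estimated depth was 10.6 and 11.5 M reads in sir4∆, 10.1 and 21.2 M in sir2∆, and 21.7 and 26.2 M in sum1∆. Between the sir4∆ and sum1∆ libraries, depth and deletion therefore cannot be told apart.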

How the data were processed

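The authors deposited FPKM values for 5076 genes in each of 8 libraries. Per the submitters' processing notes, TopHat2 2.0.10 and Cuffnorm 2.2.1 were used; build and annotation: not given in the sources used here. All identifiers matched the reference gene table (ASM251v1), which gave symbols, coding lengths and gene order only. Genes were tested with limma 3.58.1 in R 4.3.3, its variance trend on, leaving 4 residual and 4.01 prior degrees of freedom; the procedure was tested on simulated data. Depth was estimated assuming fragments of 200 bases (SD 80). Python 3.11.15 was used for the remaining steps.

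Members and lists were chosen with earlier results of these data known. The naming rule took SUM1, the 15 largest called rises and falls with a symbol and the 5 largest without, called list members, the up to 6 members of the sporulation, meiosis, mating and NAD lists highest in sir2∆, the 6 steadiest and 6 most abundant genes, genes resting on 1 library, and up to 4 members of each list with the largest change. Named outside it, after their values were seen, were ACS2, ATH1, CYC7, ERG13, ERG20, FBP26, GCR1, GCR2, GPH1, HSP26, HSP42, HSP78, LCB1, LCB2, NDT80, ORC1, PDC2, PFK1, PFK2, PGI1, QCR8, RFM1, RPP1, TPI1, TRX2, UPC2, YPI1, KLLA0A11858g, KLLA0E24817g, KLLA0E24949g and, below the filter, SSP2, BAR1 and the HML genes. Alternatives were other pseudocounts, filters, normalizations and spread estimates, a replicate block, a depth term and each library left out.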

Additional observations from a re-analysis of the deposited data

How the results depend on the processing

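None of the recomputed results was reversed. With depth class as a term, 19 genes were called higher and 26 lower. Leaving out 1 library at a time gave 17 to 70 genes called higher and 20 to 64 called lower, with 16 to 49 past 2-fold higher and 13 to 41 past 2-fold lower in every remaining pair; without sir4∆ replicate 2 the last count was 34. The cause was not tested. A pseudocount of 0.1 gave 34 and 44 calls, a pseudocount of 5 gave 27 and 26, and quantile normalization gave 27 and 27. The replicate block gave 31 and 37. Differences between replicates 1 and 2 correlated at -0.255 across genes between sir4∆ and WT, so the numbers do not pair the libraries. With the sir4∆ numbers crossed, an alternative chosen after seeing the data, the counts were again 31 and 37. Every strain holds 1 library of each number, so neither block can move a fold change. The unchanged counts therefore do not test pairing. Over named genes and alternatives, 114 values lost and 7 gained a call, and 2756 stayed on their side of the thresholds. With an estimated 10.6 to 21.7 M reads per sir4∆ or WT library, genes under 10 FPKM had the widest intervals.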

Other observations

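Cell cycle genes and a gene of uracil synthesis also differed by small amounts. Of 27 tested cell cycle genes, 16 were higher (59.3%) and 1 lower (3.7%) in all 4 pairs, against 33.6% and 36.3% of all genes. The median log2 fold change was 0.16, and 0 were called, near the 1.36% of all genes. URA1, which makes orotate for uracil synthesis and lies among the chromosome-end genes, had 1124 and 1121 FPKM in sir4∆, against 537 and 752 FPKM in WT (log2 fold change 0.82, adjusted p = 0.00397).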
